A study of Mus musculus with 3 samples.

Results

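Blocks of 2 or more neighbouring exons that are spliced in together or left out together were described in normal mouse liver. RNA sequencing had been done on 3 liver libraries, 1 group with replicates numbered 1 to 3, from mice of the strain C57BL/6 that the labels give as wild type (WT), healthy and male. The deposited tables list splicing events with an abundance in FPKM (fragments normalised to transcript length and library size) for each form of an event. Blocks were selected on the listing and the level of their forms: a block was taken where the same gene, strand, event limits and outer exon borders carried an included form (every exon of the block present) and a skipped form (none of them present), where each form was listed in at least 1 library, and where the 2 forms summed to a mean of at least 1 FPKM. This gave 577 blocks in 392 genes, out of 5810 exon skipping pairs of any kind with both forms listed. Without the minimum there were 869 blocks. Just inside the minimum lay a block of Hnf1aos1 with a mean sum of 1.004 FPKM and 1 of Rpain with 1.006 FPKM, and just outside it lay blocks of Zfp644 with 0.9997 FPKM and of Gpatch2 with 0.998 FPKM. The blocks were chosen by these measured values, the listing of both forms and their sum, so neither is a finding here. The balance between the forms was not used.

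The labels do not say whether the libraries came from separate animals, and the p-values then measure only the spread between these libraries, which may be technical. All 10 hepatocyte markers were listed in each library, summing to 38688 to 43989 FPKM, whereas markers of Kupffer cells summed to 63.6 to 105 FPKM, of sinusoidal endothelium to 46.9 to 56.5 FPKM, of cholangiocytes to 33.9 to 79.2 FPKM, nearly all of it Spp1 (31.5 to 75.5 FPKM), and of stellate cells to 109 to 140 FPKM with Lrat at 0. T and B cell markers summed to 2.88 to 5.29 FPKM and erythroid markers to 199 to 666 FPKM, and of the 3 acinar pancreas markers Prss2 and Amy2a1 were at 0 while Cela1 stood at 7.32 to 9.27 FPKM. In bulk tissue, a form used by few cells and a form used little by every cell cannot be told apart. The libraries went against the label of male, with Xist at 34.2 to 39.6 FPKM in all 3 and 4 genes of the Y chromosome (Eif2s3y, Kdm5d, Uty and Ddx3y) at 0. No comparison between sexes was made. Depth is unknown, since counts of reads are not part of the tables used. Values far below 1 FPKM are estimates for transcripts close to 0, and an event that is not listed is treated as 0. The study also concerns liver tumours, which were not analysed here.

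In most exon skipping, the splicing machinery passes over a lone cassette exon. A block needs the same decision at several exons, so that the mature RNA keeps the whole group or joins the exons that flank it. Where each exon alone would shift the reading frame and the group does not, only the joint choice leaves the frame intact. Some genes for splicing factors carry exons with stop codons whose inclusion exposes the RNA to nonsense-mediated decay, the pathway that removes messages with an early stop. In some other genes neighbouring exons are mutually exclusive, and then a message with both, or with neither, is a minor product.

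The sequences below are those of coding blocks that the results turn on. They are the exons left out together and the junction that their skipping makes. In each block the first exon is in capitals and the second in lower case. In each junction the last 15 bases of the exon upstream are in lower case and the first 15 bases of the exon downstream in capitals. All are written 5′ to 3′ along the gene, read from GENCODE M21 transcripts on GRCm38. The block of Vegfa, which encodes the vascular growth factor that endothelial cells answer to, spans chr17:46020991-46022348 on the minus strand and carries much of the part of the protein that binds heparin. The block of Fgfr2, a receptor for fibroblast growth factors, spans chr7:130241200-130242644 on the minus strand and encodes the outermost immunoglobulin-like domain and the acid box that follows it. The block of Khk, ketohexokinase, the enzyme that phosphorylates fructose, spans chr5:30926688-30927156 on the plus strand and holds a pair of mutually exclusive exons.
Vegfa, block: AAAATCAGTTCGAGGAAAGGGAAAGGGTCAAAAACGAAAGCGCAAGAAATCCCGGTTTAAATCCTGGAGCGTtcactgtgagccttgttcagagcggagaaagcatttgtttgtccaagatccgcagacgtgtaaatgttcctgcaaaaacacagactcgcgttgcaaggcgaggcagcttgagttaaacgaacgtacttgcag
Vegfa, skipping junction: aacaaagccagaaaaATGTGACAAGCCAAG
Fgfr2, first exon: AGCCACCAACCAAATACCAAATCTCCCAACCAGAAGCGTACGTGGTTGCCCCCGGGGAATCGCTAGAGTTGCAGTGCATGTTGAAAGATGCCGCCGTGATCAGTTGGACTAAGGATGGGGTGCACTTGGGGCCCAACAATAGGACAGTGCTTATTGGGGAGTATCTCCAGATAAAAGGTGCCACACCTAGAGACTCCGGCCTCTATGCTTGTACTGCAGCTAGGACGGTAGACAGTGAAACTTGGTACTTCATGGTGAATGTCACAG
Fgfr2, second exon: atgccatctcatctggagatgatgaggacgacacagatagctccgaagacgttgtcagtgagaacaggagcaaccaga
Fgfr2, skipping junction: ctttagaaccagaagGAGCACCGTACTGGA
Khk, block: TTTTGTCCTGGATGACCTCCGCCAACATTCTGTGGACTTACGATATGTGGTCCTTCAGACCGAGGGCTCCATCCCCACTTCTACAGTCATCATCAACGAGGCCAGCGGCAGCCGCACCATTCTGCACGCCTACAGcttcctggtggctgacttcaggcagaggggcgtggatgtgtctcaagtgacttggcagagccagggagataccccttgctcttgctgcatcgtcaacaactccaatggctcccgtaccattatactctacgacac
Khk, skipping junction: tggccacgttgccgaGAACCTGCCAGATGT

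A second set shows blocks that were skipped in most of the message or whose balance moved between libraries. They are those of Mbnl1, an RNA-binding regulator of splicing (chr3:60621423-60622240, plus strand), of Slmap, a tail-anchored membrane protein (chr14:26459410-26459954, minus strand), of Agap3, a GTPase-activating protein for Arf (chr5:24496733-24498207, plus strand), and of Mff, the receptor on mitochondria that recruits the fission enzyme (chr1:82741818-82747142, plus strand).
Mbnl1, block: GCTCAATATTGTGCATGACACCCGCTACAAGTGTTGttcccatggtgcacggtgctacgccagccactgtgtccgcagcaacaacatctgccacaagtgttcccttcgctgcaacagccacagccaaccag
Mbnl1, skipping junction: catttctcccaccagATACCCATAATATCT
Slmap, block: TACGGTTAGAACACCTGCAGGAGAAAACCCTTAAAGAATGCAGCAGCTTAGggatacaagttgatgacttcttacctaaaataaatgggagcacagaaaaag
Slmap, skipping junction: tgacagctctgcaagAGAAGCTGATGGTCC
Agap3, first exon: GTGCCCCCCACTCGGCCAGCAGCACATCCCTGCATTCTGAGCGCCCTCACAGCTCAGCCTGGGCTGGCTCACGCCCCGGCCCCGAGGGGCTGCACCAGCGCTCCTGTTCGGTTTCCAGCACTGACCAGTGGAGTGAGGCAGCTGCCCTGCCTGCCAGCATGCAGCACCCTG
Agap3, second exon: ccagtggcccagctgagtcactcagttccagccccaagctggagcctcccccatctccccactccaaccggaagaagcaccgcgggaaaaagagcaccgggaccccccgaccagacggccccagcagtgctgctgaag
Agap3, skipping junction: tgggtggggccacagAGGCAGAGGAGTCCT
Mff, block: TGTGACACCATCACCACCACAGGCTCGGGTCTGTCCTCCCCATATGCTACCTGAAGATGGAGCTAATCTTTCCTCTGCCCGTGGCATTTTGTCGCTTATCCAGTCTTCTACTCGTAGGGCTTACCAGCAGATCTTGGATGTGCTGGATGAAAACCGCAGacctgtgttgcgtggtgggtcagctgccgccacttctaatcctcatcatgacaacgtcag
Mff, skipping junction: cagaaacgattccatGTATGGCATTTCAAA

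Most blocks were short: 433 held 2 exons, 90 held 3, 20 held 4, and 34 held 5 or more. The 1581 exons had a median length of 114 bases, from 6 to 7874 bases, and the median distance between the flanking exons was 10091 bases. Of the 392 genes, 283 had 1 block. Rpain, which encodes an importin partner of a replication protein, had 11 blocks, Cyp3a25, Mgam and Sorbs2 had 7 each, and Apoc4 had 6. Blocks of 1 gene share exons and reads and are not independent, and the 577 blocks used 455 distinct skipping junctions. In 47 blocks both forms carried exactly the values of another block of the gene, as where Vegfa has a shorter version of its first exon (54 in place of 72 bases), so the tables do not separate those variants. The whole included chain, between the same flanking exons, was annotated within at least 1 transcript for 455 blocks (78.9%). The skipping junction was annotated for 477 (82.7%).

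Of the 2 forms of a block, the included form was the larger at most blocks. The inclusion share was the included form's FPKM as a percentage of the 2 forms, taken within a library and averaged over libraries. Forms with only some exons of the block are left out of it, so a high share says only that complete skipping was low beside full inclusion. Its median over blocks was 92.3%, and in single libraries it was 97.7% for replicate 1, 95.1% for replicate 2 and 98.6% for replicate 3. At 302 blocks (52.3%) the mean share was 90% or more, at 114 it lay from 50% to under 90%, at 85 between 10% and 50%, and at 76 (13.2%) it was 10% or less. Among 3863 single cassette exons taken by the same rule the median was 64.3%, with 34.2% of exons at 90% or more and 24.5% at 10% or less. This difference between blocks and single exons is a description without a test, since many of both come from the same genes and transcripts.

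**Figure D1:**
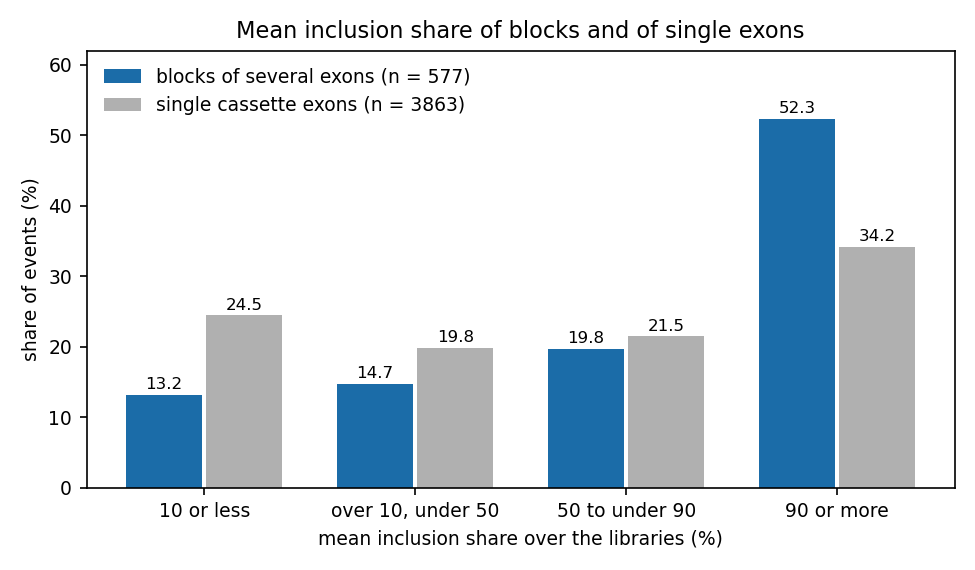
Bars give the percentage of 577 blocks of several exons (blue) and of 3863 single cassette exons (grey) in 4 classes of the mean inclusion share over the 3 libraries. Blocks are most frequent in the class of 90% or more (52.3%, against 34.2% of single exons).

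The balance was then tested for each block with limma, as the mean over libraries of log2(included FPKM + 1) minus log2(skipped FPKM + 1) against 0, fitted over all 4440 single exons and blocks with Benjamini-Hochberg adjustment at 0.05. All differences below are on this scale, which understates the ratio of low forms. The included form was higher at 298 blocks, 51.6% of them, against 40.6% of all pairs tested and 39% of single exons. The skipped form was higher at 86 blocks, 14.9%, against 27.7% of all pairs and 29.6% of single exons. The other 193 blocks were not called. Without replicate 1, 2 or 3 the rule left 474, 471 or 497 blocks, of which the included form was called at 202, 191 or 207 and the skipped form at 50, 50 or 54. Both forms were listed together in all 3 libraries at 119 blocks, in 2 at 139, in 1 at 299 and in none at 20. Most blocks therefore had a form that was missing from at least 1 library, most often the skipped form, which was listed in all libraries at 231 blocks against 393 for the included form.

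The blocks with the most RNA, taken with 1 per gene, belonged to secreted and metabolic proteins of the hepatocyte. In each of the 10 highest the included form was called higher, against 51.6% of all blocks. Of several blocks of a gene the one with the highest sum was kept. Where blocks share a skipping junction, that choice favours a high included form, so the 10 calls are a description. Cyp2e1, the cytochrome P450 that oxidises ethanol, led with a block of 3 exons (161, 177 and 142 bases) at chr7:140769564-140771083. Its included form stood at 1748, 2212 and 2411 FPKM in replicates 1 to 3, and its skipped form at 48.1, 24.6 and 30.4 FPKM. All 3 libraries thus held far more of the included form, yet the skipped form of this gene exceeded the included form of most other blocks. The inclusion share was 98.3% ± 0.87 (SD, n = 3), and the log2 difference was 5.95 (SE 0.38, adjusted p from limma 0.00075). The same skipping junction also paired with the outer exons alone, 161 and 142 bases without the middle exon, at 0.0051, 0.0049 and 0 FPKM, so a chain lacking the middle exon alone was close to 0 in every library.

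The other 9 behaved alike. Pon1, the paraoxonase carried on high-density lipoprotein, had 317, 529 and 471 FPKM of the included form and 0.0035, 0.02 and 0.062 FPKM of the skipped form. Fbp1, the gluconeogenic fructose bisphosphatase, had 366, 344 and 382 FPKM against 1.45, 0.785 and 0. Neither gene's forms overlapped in any pair of libraries. Glud1 (glutamate dehydrogenase), Cfb (complement factor B), Cyp2c70 (a P450 that modifies bile acids), Apoc4 (a lipoprotein component), Aldh7a1 (lysine breakdown), a block of 8 exons of Cyp3a25 and Esd (S-formylglutathione hydrolase) had mean shares from 98.0 to 100%. Cyp2c70, Cyp3a25 and Cyp2e1 have close relatives in the genome with which reads can be shared, so their minor forms are uncertain.

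Read as a list, hepatocyte metabolism had 9 blocks in 8 of its 136 genes. The included form was higher at 7 of the 9, the skipped form at 1 (the Cyp2e1 pair of outer exons), against 51.6% and 14.9% of all blocks, and the median share was 99.5%, against 92.3% over all blocks. The 7 included Bckdhb and Dbt, both parts of the complex that oxidises branched-chain keto acids. Bckdhb stood at 35.7, 41.1 and 33.3 FPKM included and 0, 4.30 and 4.04 FPKM skipped. Hadhb, of mitochondrial fatty acid oxidation, and Pcca, of propionyl-CoA carboxylation, had mean shares of 99.9% and 99.5%. Plasma proteins had 7 blocks in 2 genes, with the included form higher at 3 and the skipped form at none, against 51.6% and 14.9% of all blocks. Khk was the metabolic gene that was not called, and its forms are described below.

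Skipping dominated at a smaller set, which held blocks of the signalling genes Vegfa and Fgfr2. The next blocks had the lowest share among blocks with both forms in every library and a mean sum of at least 5 FPKM. Their low share is the reason they are named, and their test only places them in the fit. That choice also favours forms that do not overlap between libraries, so a lack of overlap at these blocks is a description. The included form of the Vegfa block stood at 6.89, 9.86 and 13.0 FPKM, and the skipped form at 45.5, 29.8 and 39.9 FPKM. Every library held more of the skipped form, which lacks the heparin-binding exons printed above, and the forms did not overlap. The share was 20.9% ± 6.69 (SD, n = 3), with a log2 difference of −1.87 (SE 0.32, limma adjusted p 0.008). Another form, with the 132-base exon alone, was listed at 6.10, 3.84 and 6.02 FPKM, and the 72-base exon alone at 0, 0.064 and 0. The form with 1 exon thus took 9.88% ± 0.78 of the 4 forms in all, nearly the same in each library.

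At Fgfr2 the included form stood at 0.956, 2.48 and 0.0099 FPKM and the skipped form at 7.10, 4.33 and 5.19 FPKM. The skipped form was higher in every library, but the included form ranged from close to 0 in replicate 3 to its highest level in replicate 2. The share was 16.2% ± 18.5 (SD, n = 3; log2 difference −1.76, SE 0.47, limma adjusted p 0.03), and the call was lost without replicate 1 (−1.62) and without replicate 3 (−1.33). The 78-base acid box exon alone was listed at 0.0039, 0.487 and 3.62 FPKM, highest in the library with the least of the full block.

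Mbnl1 had 0.330, 0.072 and 0.503 FPKM with its 36- and 95-base exons and 9.68, 10.5 and 3.68 FPKM without them, a share of 5.34% ± 5.94. Slmap had 0.416, 0.537 and 1.73 FPKM with a pair of 51-base exons and 9.29, 9.73 and 10.7 FPKM without. Agap3 varied least of the 3, with 0.819, 0.926 and 0.656 FPKM with its 171- and 138-base exons and 6.47, 5.88 and 6.03 FPKM without, a share of 11.5% ± 1.91. In all 3 genes the forms did not overlap between libraries, which the choice by low share favours. Their log2 differences were −2.69 for Mbnl1, −2.59 for Slmap and −1.99 for Agap3, with limma adjusted p of 0.0069, 0.0023 and 0.0031. The 1-exon forms set them apart: neither exon of Agap3 was listed alone, whereas the 95-base exon of Mbnl1 alone reached 7.47 FPKM in replicate 3, more than the skipped form there.

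3 more of these blocks lay at the start of a message or in an unannotated chain. In Kars, the lysyl-tRNA synthetase of cytosol and mitochondria, and in Rnps1, a protein of the exon junction complex, the annotated reading frame began inside the block. Kars held 1.37, 1.82 and 0.544 FPKM included and 13.3, 6.10 and 11.3 skipped, and its call was lost without replicate 1 (−2.16). Rnps1 had 0.998, 1.05 and 1.92 FPKM included and 7.91, 5.63 and 6.83 FPKM skipped. The third, in the locus AC102159.1, was not called without replicate 1 (−1.45) or without replicate 2 (−1.49).

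**Figure D2:**
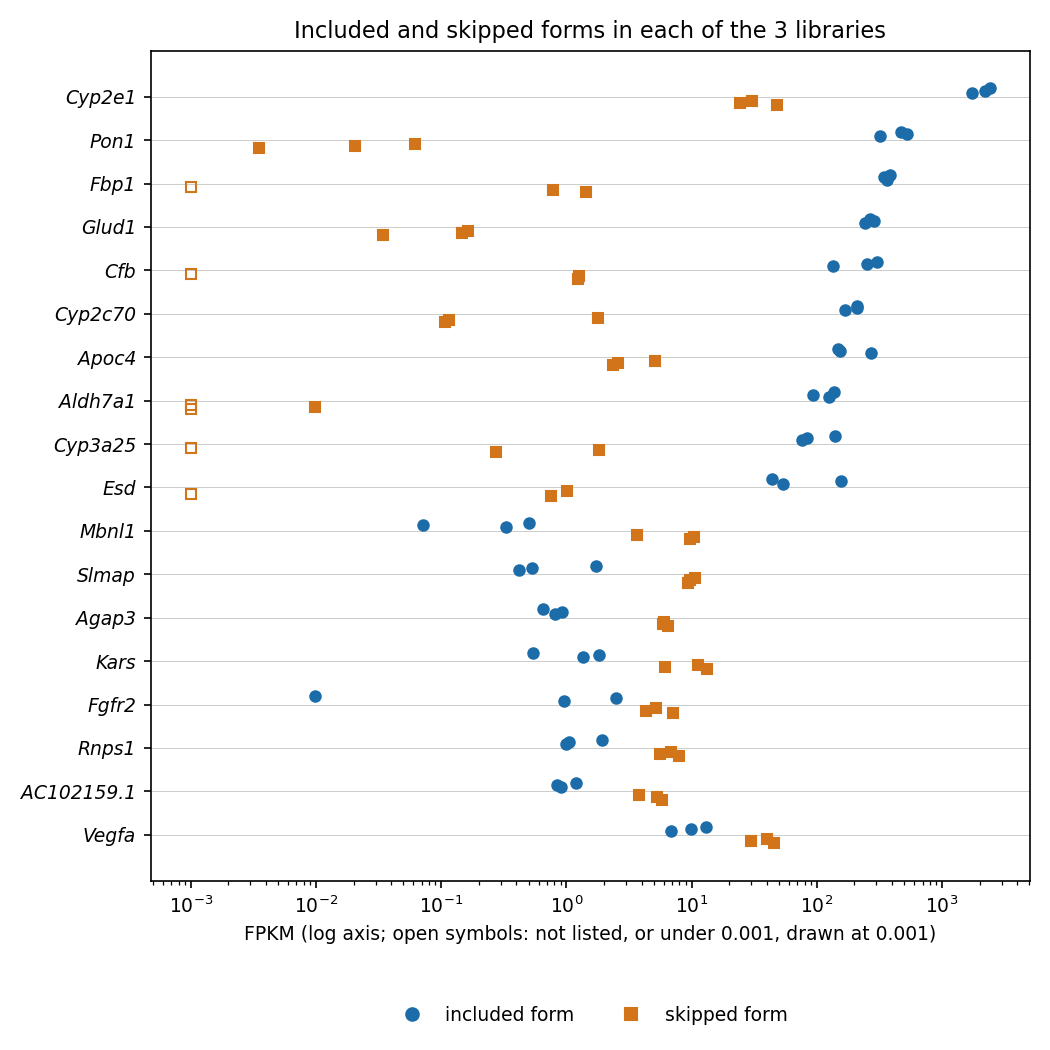
Each row is a block, with the FPKM of its included form (blue circles) and skipped form (orange squares) in the 3 libraries on a log axis. Above are the 10 blocks with the most RNA, from Cyp2e1 to Esd, where each circle lies to the right of every square of its row, and below are the 8 with the lowest share, from Mbnl1 to Vegfa, where each square lies to the right of every circle of its row. Open symbols are forms that were not listed or under 0.001 FPKM.

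Genes for splicing and RNA-binding proteins held 19 blocks in 11 of the 59 genes listed. The skipped form was higher at 10 of the 19, in 6 genes (Rbm39, Srsf11, Tial1, Rbm25, Clk4 and Srsf4), and the included form at 4, in Taf15, Rbm6 and Tia1. Over all blocks 14.9% were called for the skipped form and 51.6% for the included form. The list's median share was 1.18%, against 92.3% over all blocks. The 3 blocks of Srsf4 carry the same values, as do 2 of Rbm6, so the count of genes is the more careful one. The same count was not taken over the genes of all blocks, so it has no share to be set against. This list was drawn up with earlier results of these data known, and its direction is a description.

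Rbm39, a splicing coactivator, had the most RNA of these. Its block of 55 and 72 bases at chr2:156174097-156176457 was listed at 0, 0 and 0.0016 FPKM included and at 36.1, 25.8 and 23.3 FPKM skipped, and its other block of 73 and 274 bases at 0, 0 and 0.035 FPKM included and 17.5, 22.1 and 21.5 FPKM skipped. In both the annotated reading frame of the including transcript ends inside the block, and GENCODE classes that transcript as a target of nonsense-mediated decay. The log2 differences were −4.85 (SE 0.24) and −4.39 (SE 0.22), each with a limma adjusted p of 0.00051.

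4 further genes were alike in structure or level. Srsf11, a serine- and arginine-rich protein, had 0, 0.140 and 0.314 FPKM included and 16.4, 11.5 and 13.1 FPKM skipped. Tial1, a translational silencer that also binds intron starts, had 0.225, 0 and 0 FPKM included and 8.67, 16.5 and 11.2 FPKM skipped. Srsf4 had 0.011, 0 and 0 FPKM included and 13.2, 11.1 and 2.22 FPKM skipped, its level in replicate 3 being the lowest. In these 3 the reading frame of the annotated including transcript again ends inside a block. In Clk4, the kinase that phosphorylates serine- and arginine-rich splicing factors, the 3 exons of 67, 78 and 59 bases were listed at 0, 0.0011 and 0 FPKM included and 5.71, 11.99 and 10.4 FPKM skipped, and the including transcript is also classed as a decay target. Rbm25 differed, in that the frame of the including transcript begins inside the block of 64 and 118 bases, with 10.2, 10.5 and 8.75 FPKM skipped. The limma adjusted p of the blocks just described ran from 0.00083 for Rbm25 to 0.0081 for Srsf4. Against them, Taf15, an RNA-binding protein of the FET family, included its exons of 121 and 35 bases at 14.8, 18.5 and 16.7 FPKM with 0, 1.27 and 2.06 FPKM skipped. Luc7l2, Rbfox2 and 1 block each of Clk4, Taf15 and Rbm6 were not called.

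**Figure D3:**
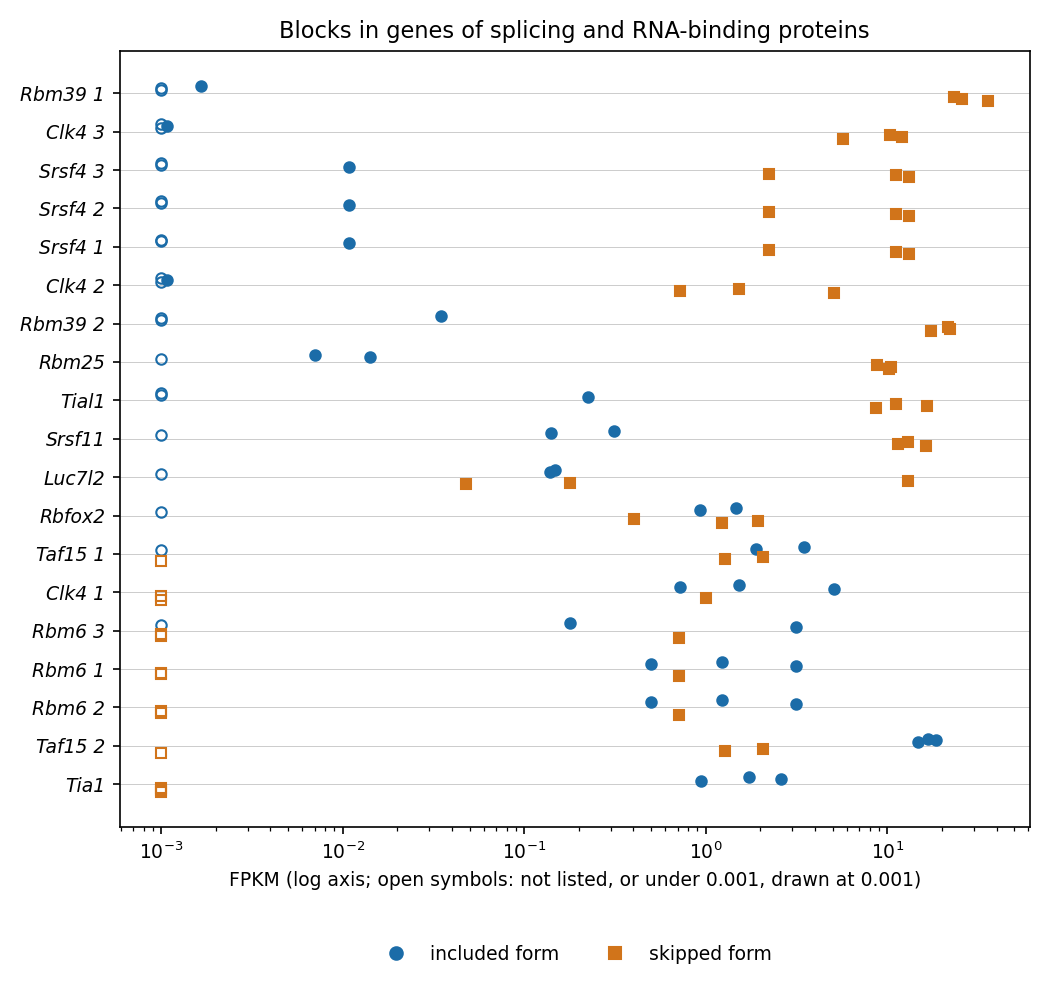
Each row is 1 of the 19 blocks in genes of splicing and RNA-binding proteins, ordered by mean inclusion share, with the included form (blue circles) and the skipped form (orange squares) in the 3 libraries on a log FPKM axis. In the 10 upper rows, from Rbm39 to Srsf11, the skipped form lies above the included form in every library, while Taf15 2 and Tia1 at the foot show the opposite.

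Across all blocks, 29 had an annotated including transcript whose reading frame ends inside the block (in 24 genes), and the skipped form was called at 8 of them (27.6%) and the included form at 10 (34.5%). The 8 lay in 7 genes: Rbm39, Srsf11, Tial1, Srsf4, Cinp, Ppp2r5c and Dot1l. Of the 331 blocks inside a reading frame, the skipped form was called at 31 (9.37%) and the included form at 232 (70.1%). Where the reading frame starts inside the block the skipped form was called at 7 of 45 (15.6%), and outside the frame, in the untranslated parts, at 9 of 24 (37.5%). The included form was called at 23 (51.1%) and 5 (20.8%) of these. Sorted by the class of the including transcript, the skipped form was called at 12 of 36 blocks (33.3%) where GENCODE gives a decay target and no protein-coding transcript, and at 43 of 393 (10.9%) where it gives a protein-coding one. The included form was called at 10 of the 36 (27.8%) and at 260 of the 393 (66.2%). Over all blocks the skipped form was called at 14.9% and the included form at 51.6%. Chains with no annotated transcript, 122 blocks, had a median share of 49.4%.

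The reading frame itself was a feature the selection did not use. Of the 331 blocks inside a reading frame 207 (62.5%) had a combined length that was a multiple of 3, the length of a codon. The same held for 1228 of 2204 coding single exons (55.7%) and for 42.3% of 154223 pairs of neighbouring coding exons in the annotation. By inclusion share, the percentage was 57.0% (126 of 221) at 90% or more, 66.7% (40 of 60) from 50% to under 90%, 92.3% (24 of 26) between 10% and 50%, and 70.8% (17 of 24) at 10% or less. Coding single exons in the same classes had 42.5%, 57.5%, 82.9% and 79.5%, so the higher percentages at low inclusion were not particular to blocks. Of the 31 coding blocks called for the skipped form, 24 (77.4%) kept the frame. Among coding single exons with that call, 276 of 337 (81.9%) did. The printed blocks of Vegfa (204 bases), Fgfr2 (345 bases), Khk (270 bases), Slmap (102 bases), Agap3 (309 bases) and Mff (219 bases) keep it. That of Mbnl1 (131 bases) does not. The skipping junction was annotated in a protein-coding transcript at 181 of the 207 blocks that keep the frame (87.4%) and at 41 of the 124 that shift it (33.1%). In no protein-coding transcript, but in a decay target, was it annotated at 35 of the 124 (28.2%) and at 2 of the 207. The counts come from blocks that in part share a gene, and no test was made of them.

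**Figure D4:**
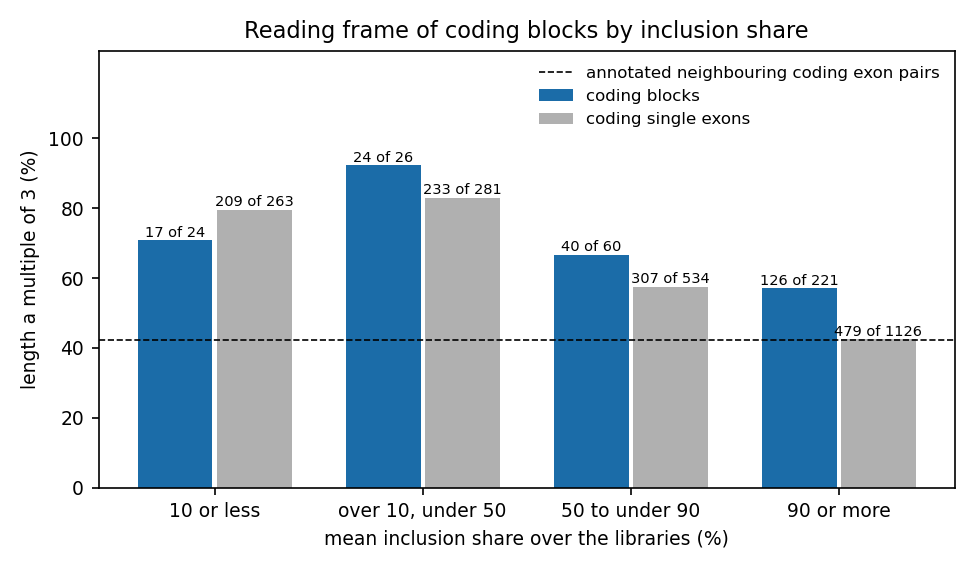
Bars give the percentage of coding blocks (blue) and coding single exons (grey) whose length is a multiple of 3, by mean inclusion share, with the counts above each bar. The dashed line is the percentage among annotated neighbouring coding exon pairs, 42.3%, and the tallest bar is that of blocks with a share between 10% and 50% (24 of 26).

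Blocks of 2 coding exons, 252 in all, fell into 3 kinds. In 90 each exon was a multiple of 3 by itself, in 67 only the 2 together were, and in 95 the pair shifted the frame. These are 35.7%, 26.6% and 37.7% of the blocks, against 20.98%, 21.3% and 57.7% of annotated neighbouring pairs. A form with only 1 of the exons was listed at 56 of the 90 blocks (62.2%), at 19 of the 67 (28.4%) and at 39 of the 95 (41.1%). So the blocks in which only the joint length keeps the frame had a 1-exon form least often in these counts. The skipped form was called at 20 of the 90, 2 of the 67 and 6 of the 95, and the included form at 45, 51 and 76. Over all blocks the skipped form was called at 14.9% and the included form at 51.6%. Over the 331 blocks inside a reading frame these were 9.37% and 70.1%.

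Joint skipping was often not the whole account of a pair of exons. Of all 433 blocks of 2 exons, 216 (49.9%) had a 1-exon form listed between the same flanking exons. It made up at least 10% of the 4 forms at 133 and at least 50% at 52 blocks. Both 1-exon forms were listed at 33 blocks. At Khk, which the naming rule picked, the 1-exon form was the main one. The form with both of its 135-base exons was listed at 4.04, 17.2 and 0.0075 FPKM and the form with neither at 5.74, 2.58 and 3.79 FPKM, while the form with the second exon alone stood at 143, 78.6 and 58.6 FPKM and with the first alone at 1.20, 0 and 0.422 FPKM. All 3 libraries therefore used the second exon, printed in lower case above, in most of the message: the 1-exon forms took 89.2% ± 8.03 (SD, n = 3). The balance between both exons and neither varied, with a share of 42.8% ± 43.4, was not called, and rests on forms that are minor in each library.

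Prdx6, a peroxiredoxin that reduces phospholipid peroxides, gave a like picture with less agreement between libraries. Its included form was listed at 7.65, 3.70 and 106 FPKM, its skipped form at 127, 0.462 and 4.96 FPKM, and the 157-base second exon alone at 84.7, 175 and 88.6 FPKM. Replicate 1 was high in the skipped form and replicate 3 in the included form, whereas the 1-exon form was high in all. Its share, 63.4% ± 50.1, had the largest spread of the blocks listed in every library. In Eef1d, an exchange factor for elongation factor 1, the 72-base exon alone stood at 30.8, 24.1 and 25.4 FPKM, with the included form at 0.153, 0.059 and 0.423 FPKM and the skipped form at 0.068, 10.8 and 9.21 FPKM. Replicate 1 held almost none of the skipped form, and the block was not called (limma adjusted p 0.079) unless replicate 1 was left out (−3.16). In Mff the skipped form was listed at 6.51, 1.20 and 13.9 FPKM, the included form at 0.998, 2.47 and 0.658 FPKM and the 159-base exon alone at 0, 5.37 and 0 FPKM. Replicate 2 stood apart from the other libraries, and the block was not called with all 3 (log2 difference −1.47, adjusted p 0.17) but was without replicate 2 (−2.54).

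**Figure D5:**
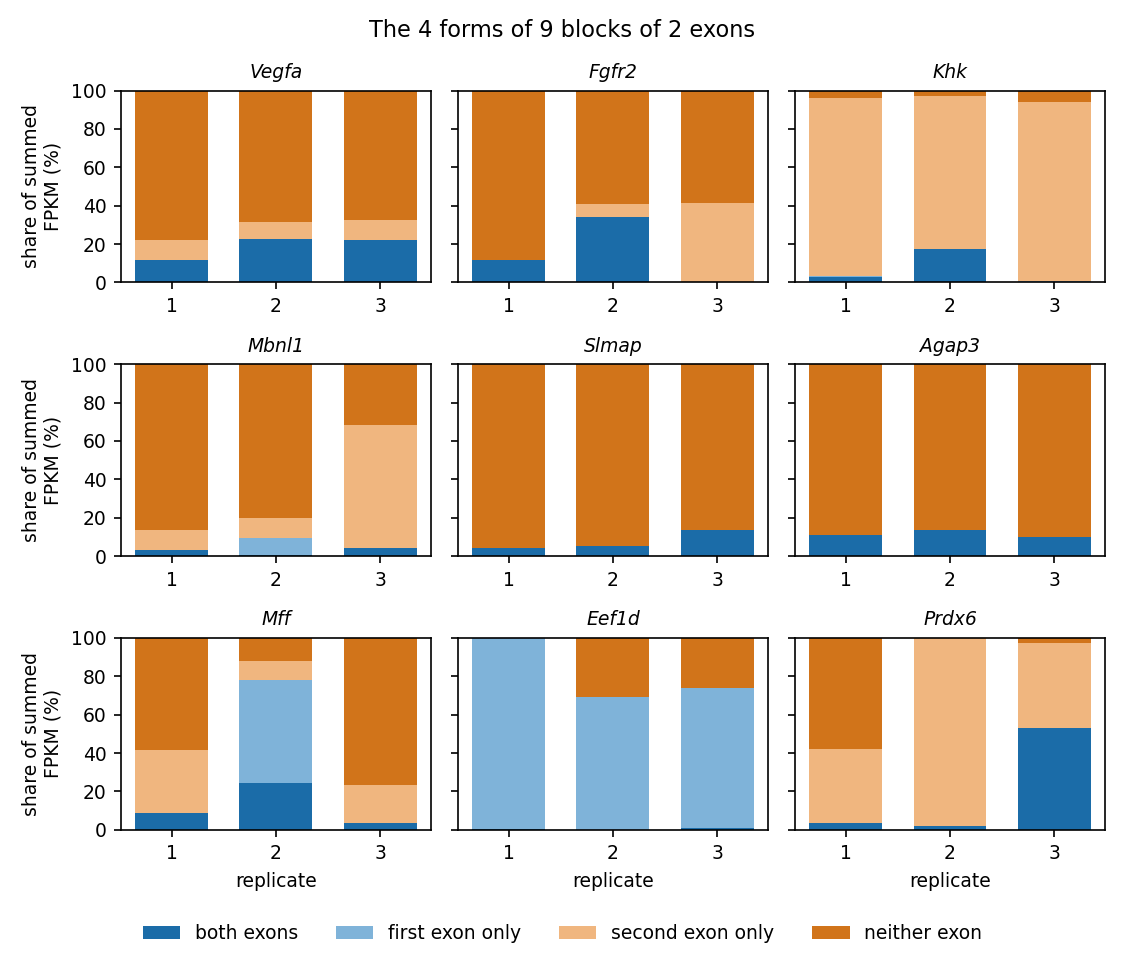
Stacked bars give, for 9 blocks of 2 exons and each replicate, the percentage of the summed FPKM in the form with both exons, with the first only, with the second only and with neither. Slmap, Agap3 and Vegfa are mostly the form with neither exon, Khk mostly the form with the second exon, and Prdx6, Mff, Eef1d and Mbnl1 differ between replicates.

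Outside the naming rule, and chosen after their values were seen, 2 blocks had a called included form that was itself minor. Mgst1, a microsomal glutathione transferase, had 38.7, 30.8 and 26.9 FPKM with both of its exons but 1725, 1585 and 1309 FPKM with the 95-base exon alone. Reep6, which shapes the endoplasmic reticulum, had 1.17, 29.7 and 39.8 FPKM with both and 185, 143 and 129 FPKM with its 169-base exon alone. A share near 100% at these blocks says that complete skipping was rare, not that both exons were usual.

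The 8 blocks named as nearest to an even balance included some with a wide spread between libraries and some that were steady. Nr1i3, the constitutive androstane receptor that senses foreign compounds, had 35.2, 52.1 and 26.6 FPKM of the included form and 1.08, 61.8 and 49.2 FPKM of the skipped form. The skipped form was nearly absent from replicate 1 and exceeded the included form in the others. Tmem234 was steadier, with 5.96, 6.32 and 4.80 FPKM included and 11.8, 7.997 and 7.98 FPKM skipped, as was Zc3h14, a poly(A)-binding protein, at 5.89, 4.96 and 5.36 FPKM included and 5.10, 4.35 and 1.98 FPKM skipped. None of these 3 passed the test. H2-Q7, a class Ib histocompatibility gene with close copies, had a share of 53.2% ± 6.28, uncertain for that reason. Fam47e (58.8% ± 32.3) was likewise not called. Nor were Arhgef19 (66.3% ± 43.9) and Nfib (30.3% ± 36.3), which were named for their large spread, though Nfib was called without replicate 1 (−2.20). Over all blocks, the SD of the share was under 10 percentage points at 358 and over 30 at 108.

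Genes of vesicle traffic held 10 blocks in 7 of 39 listed genes, with the included form higher at 4 and the skipped form at 3, against 51.6% and 14.9% of all blocks. Sec31a, an outer coat protein of the vesicles that leave the endoplasmic reticulum, had both: the pair of 39 and 78 bases was listed at 4.62, 6.71 and 7.93 FPKM included and 13.4, 11.5 and 13.4 FPKM skipped, a share of 33.2% ± 6.56, while its other blocks had shares of 99.5% and 99.6%. Skipping of the pair was called (−0.91, limma adjusted p 0.034) but not without replicate 1 (−0.69), 2 (−1.02) or 3 (−1.02). Dnm1l, the fission enzyme that Mff recruits, had 1.75, 0 and 1.15 FPKM with its 78- and 33-base exons and 4.26, 4.26 and 2.70 FPKM without (adjusted p 0.044), and this call too was lost without replicate 1 (−1.59), 2 (−0.86) or 3 (−1.67). Bin1, which bends membranes, had 2.54, 3.60 and 4.01 FPKM skipped and was listed as included in replicate 3 alone, at 0.461 FPKM. Uso1 and Mia2, which act between endoplasmic reticulum and Golgi, included their blocks at 14.2 to 16.0 and 30.1 to 36.2 FPKM.

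Cytoskeleton and adhesion genes held 12 blocks in 5 of 54 genes, with the included form higher at 4 and the skipped form at 2, against the same 51.6% and 14.9%. Ceacam1, an adhesion molecule that takes part in insulin clearance by the liver, included its exons of 285 and 255 bases at 12.4, 14.3 and 9.92 FPKM, with 1.93, 0.146 and 0.186 FPKM skipped. Of the ubiquitin genes, Nedd4 included its block at 27.1, 38.7 and 41.5 FPKM, while a block of Rnf14 and 1 of Ube3a were called for the skipped form and lost the call without replicate 1 (−0.98 and −1.52) or 3 (−0.99 and −0.94). Cyld was called for the included form (1.22) but not once any replicate was left out (1.18 to 1.24). Among chromatin genes Smarca2, an ATPase of the SWI/SNF remodeller, had 10.7, 0.790 and 15.7 FPKM skipped for its 54- and 47-base exons and 0, 0.118 and 0 FPKM included, a call lost without replicate 1 (−2.37) or 3 (−2.11). Of 34 genes known elsewhere for blocks of several exons, 5 had at least 1 here (Mbnl1, Abi1, Map4, Itsn1 and Epb41l2), with 8 blocks. The included form was called at 2 (Map4 and Itsn1) and the skipped form at 1 (Mbnl1), against 51.6% and 14.9% of all blocks. Slc38a4 was the 1 transporter with a block, and it was not called.

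The longest blocks were of a different kind. Mgam, an intestinal maltase-glucoamylase gene built from a tandem repeat, had 7 blocks of 23 exons each, 2682 or 2685 bases long. Of these, 3 were called for the included form and none for the skipped form, against 51.6% and 14.9% of all blocks. Their mean shares ran from 44.9 to 94.4%. Most of the 7 had the same mean included level, 3.24 FPKM, and differed in the skipped form, so they are not independent. The block nearest to even was listed at 2.14, 4.84 and 2.75 FPKM included and 4.72, 3.94 and 2.95 FPKM skipped, with the forms overlapping between libraries. Repeated copies can share reads, so these values are uncertain. Ap3b1, a subunit of an adaptor for lysosomal sorting, lacked 19 exons in a form listed in replicate 1 alone, at 0.894 FPKM, against 6.34, 7.05 and 8.50 FPKM included. Aass (lysine breakdown) and Acad10 (fatty acid oxidation) had blocks of 10 exons, whose skipped forms were also listed in 1 library each, at 8.64 FPKM in replicate 1 and 0.950 FPKM in replicate 3. None of these 3 skipping junctions was annotated. In the factor H region of chromosome 1, a chain of 6 exons assigned to Cfhr2 had 22.8, 25.3 and 15.3 FPKM included and 39.0, 54.2 and 58.7 FPKM skipped, and a chain of 13 exons with the same junction was listed in replicate 1 alone. The genes there are close copies and no chain is annotated, and the call for Cfhr2 was lost without replicate 2 (−1.31) or 3 (−0.91) and that for the 13 exons likewise (−3.94 and −3.89).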

How the data were processed

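RNA sequencing tables of 3 normal liver libraries, all of 1 group, were used as deposited by the authors: 1 table per library of splicing events with an FPKM value for each form. Tools listed without roles in the submitters' processing notes are HISAT2 2.0.1, cutadapt 1.9.1, DESeq2 and HTSeq 0.6.1, with the build mm9. For the event tables themselves the tool is not given in the sources used. Identical lines were dropped (1519, 1440 and 1485), leaving 71716, 74243 and 74236 events. Coordinates were read as GRCm38 although the notes name mm9: 93.0%, 93.0% and 93.7% of skipping junctions were introns of GENCODE M21, and none was after a shift of 1000 bases. Genes were taken from the annotated chain (455 blocks), its splice sites (116) or the identifier (6), which differed from the deposited name at 43 blocks. 2 blocks lay on patch sequences. The balance was tested with limma 3.58.1 in R 4.3.3 on log2(FPKM + 1), with a trend and a robust prior. The script was tested on simulated data whose spread did not depend on level and which held no unlisted forms. That test checks the script and does not bear on the calls. Depth is unknown. Members and gene lists were chosen with earlier results of these data known. Named blocks were, with 1 per gene, the 10 with the most RNA, the 8 with the lowest share, the 8 nearest 50%, the 6 with the largest SD (these 3 with both forms in every library and at least 5 FPKM), the 5 with the most exons and up to 6 per gene list, besides those at the minimum. Alternatives were other minimums, listings, pseudocounts and fits, and leaving out each replicate.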

Additional observations from a re-analysis of the deposited data

How the results depend on the processing

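No paired analysis was possible because the libraries form 1 group, so there are no groups to pair by replicate number; the test itself compared the 2 forms within each library. The number of blocks was 869 without a minimum, 287 (in 215 genes) at 5 FPKM and 119 (in 101 genes) with both forms in every library. The median share was 84.0% at a minimum of 0.5 FPKM, 68.1% without one, 88.8% with both forms in every library, 86.7% with identical lines kept, 95.5% in fully annotated blocks (chosen after seeing the data), and 85.4% or 70.8% with a pseudocount of 0.1 or 1 FPKM in the share. Blocks with a share under 50% numbered 161, and 86 at 5 FPKM, 274 without a minimum, 27 with both forms in every library, 107 with 1 block per gene and 94 fully annotated. Blocks with a length that is a multiple of 3 numbered 294, and 147 at 5 FPKM and 76 with both forms in every library. Leaving out each replicate gave 471 to 497 blocks, a median share of 89.4 to 90.6%, 191 to 207 blocks called for the included form and 50 to 54 for the skipped form. These fits rest on 2 libraries, and each call still tested kept its sign. Of the log2 differences of named blocks under the alternatives, 577 kept direction and call, 38 lost the call, 6 gained it and 10 changed sign, all 10 at blocks not called with 3 libraries: Arhgef19 without replicate 3 (−0.41; 1.66 without replicate 1), Fam47e without replicate 1 (−0.21) or 2 (−0.063; 1.11 without 3), H2-Q7 with identical lines kept (−0.77) or without replicate 2 (−0.017; 0.31 without 3), Khk without replicate 1 (0.047) or 3 (0.96; −1.33 without 2), Mgam without replicate 1 (0.085; −0.47 without 2), Nr1i3 without replicate 1 (−0.55; 1.94 without 3) and Prdx6 without replicate 3 (−1.10; 2.93 without 1). The cause was not tested. A fit on blocks alone, without single exons, also left out the minimum and so used all 869 blocks. It lost 7 of the named calls (Cfhr2, Dnm1l, Fgfr2, Rnf14, Sec31a, Smarca2 and Ube3a). A pseudocount of 0.1 FPKM lost the first 5 of these. The unknown depth limits every value near 0 FPKM.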
